A study of Mus musculus with 6 samples.

Results

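Hepatic mRNA was sequenced from 3 WT mice and 3 *Pai-1*+/- mice, which lack 1 copy of the gene for plasminogen activator inhibitor 1 (PAI-1), the main inhibitor of the enzymes that start clot breakdown. All 6 were male C57BL/6 mice, labelled as 21 weeks old and fed standard chow without restriction, the WT animals being littermates of the heterozygotes. The deletion is inherited and so is not confined to the liver, and each library was made from whole liver, so every cell type of the organ contributed. The cytosolic ribosomal protein genes were taken by name from the table of all genes (symbols *Rpl* or *Rps* followed by a number, *Rplp0* to *Rplp2*, and *Rpsa*), which left out genes named as pseudogenes and the ribosomal S6 kinases, and 84 of 24421 listed genes were members. Of these, 77 were canonical ribosomal proteins (46 of the large and 31 of the small subunit) and 7 were paralog-type genes that resemble a canonical member. *Fau* and *Gnb2l1* (*Rack1*) also encode canonical proteins but carry names outside the rule.

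The level given for each gene is the authors' mean normalized count, the mean over all 6 libraries of read counts after division by library size factors. It pools WT and *Pai-1*+/- livers, and it has no spread between animals attached. The deposited counts per animal are headed by animal numbers that match no sample label, so no animal was placed in a genotype, no value is given per animal and the genotypes were not compared here. Since these columns could not be tied to the samples they were not used, so the depth of each library and the precision of each level were not assessed here. Values that pool the genotypes cannot check the genotype labels. The liver identity of the samples was plain in the same values, since all 8 hepatocyte markers were listed at 61072 or more, with albumin (*Alb*) the highest gene of the table at 2155545.9. All 4 testis markers were listed at 0, all 4 skeletal muscle markers were at or under 10, and the 6 lymphocyte markers reached at most 38.6. All 6 Kupffer cell, 6 endothelial cell, 5 stellate cell and 5 cholangiocyte markers were above 10. The 4 globin genes were listed at 0 although *Alas2*, the heme synthesis enzyme of red cell precursors, was at 2136.

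Ribosomal proteins assemble with ribosomal RNA in the nucleolus into a large and a small subunit, which meet on an mRNA to translate it. Each canonical protein is present once in most ribosomes, except the stalk proteins P1 and P2, which are present in several copies. Their mRNAs begin with a C followed by a run of pyrimidines, the terminal oligopyrimidine (TOP) motif, through which mTOR signalling and the RNA-binding protein LARP1 control their translation. Hepatocytes, which export most plasma proteins, are rich in ribosomes.

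To show the start of these genes, windows of 30 bases around the annotated start (15 bases on each side) were read from RefSeq promoter sequences of GRCm38.p6. The windows below were picked after the sequences were seen. They are the highest member by mean normalized count (*Rpl4*), members with the longest runs, a member whose run begins exactly at the start (*Rpl38*), the phosphorylated small subunit protein *Rps6*, 3 members that were listed at very low levels (*Rps27*, *Rpl34* and *Rpl26*), and *Rplp0*, which has no run. Sequences are written 5′ to 3′ on the strand of the gene, the start is the 16th base, and capitals mark the longest run that begins with C and goes on with at least 4 bases that are each C or T.
Rpl4 (chr9:64173372-64173401, plus strand): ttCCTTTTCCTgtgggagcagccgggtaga
Rpl7a (chr2:26910792-26910821, plus strand): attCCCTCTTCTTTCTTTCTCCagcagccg
Rpl35 (chr2:39005117-39005146, minus strand): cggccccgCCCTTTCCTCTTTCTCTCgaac
Rpl27a (chr7:109519180-109519209, plus strand): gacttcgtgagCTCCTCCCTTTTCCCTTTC
Rpl38 (chr11:114668565-114668594, plus strand): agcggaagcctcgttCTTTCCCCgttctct
Rps6 (chr4:86857353-86857382, minus strand): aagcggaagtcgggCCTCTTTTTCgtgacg
Rps27 (chr3:90213634-90213663, minus strand): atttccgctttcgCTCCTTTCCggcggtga
Rpl34, downstream start (chr3:130730323-130730352, minus strand): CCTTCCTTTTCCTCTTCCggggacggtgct
Rpl26 (chr11:68901551-68901580, plus strand): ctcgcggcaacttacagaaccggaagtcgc
Rplp0 (chr5:115559452-115559481, plus strand): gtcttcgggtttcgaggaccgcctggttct

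Within the windows, the runs in *Rpl7a* and *Rpl27a* were 19 bases long and that in *Rpl35* 18 bases, and each spanned the annotated start. The run in *Rpl27a* reached the last base of its window, so it may be longer. In *Rpl38* the run of 8 bases began at the start base itself, and in *Rps6* the run of 10 bases began 1 base before it. *Rpl4*, by contrast, had its run of 9 bases wholly upstream of the start that RefSeq annotates, and the windows of *Rpl26* and *Rplp0* held none. In GENCODE M21, the annotation used for lengths, *Rpl4* begins at chr9:64173375, which lies within its run, so this contrast depends on the annotation. A window without these letters says only that they are not within 15 bases of the start that RefSeq annotates.

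A promoter sequence was matched for 63 of the 84 members, with 75 annotated starts among them. The start base was a C followed by 4 bases that are each C or T at 13 of these starts (17.3%), wherever the run around it began, against 2.51% of all 32851 starts in the promoter table and 2.30% of the 12589 starts of other genes with a mean normalized count above 10. Within 15 bases on either side, a run was found at 44 starts of members (58.7%), against 36.4% of all starts and 37.7% of those of the other genes above 10. On the opposite strand of the same windows the order was turned, with 25.3% of the members' starts against 40.8% of all starts. The exact letters CTTTC, which can lie within such a run and were chosen after the sequences were seen, stood in 17 windows of members (22.7%), against 4.05% of all starts. On the opposite strand CTTTC was found at 4% of the members' starts and 3.60% of all starts. These shares describe the annotation and were not tested, and some members contribute more than 1 start.

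**Figure D1:**
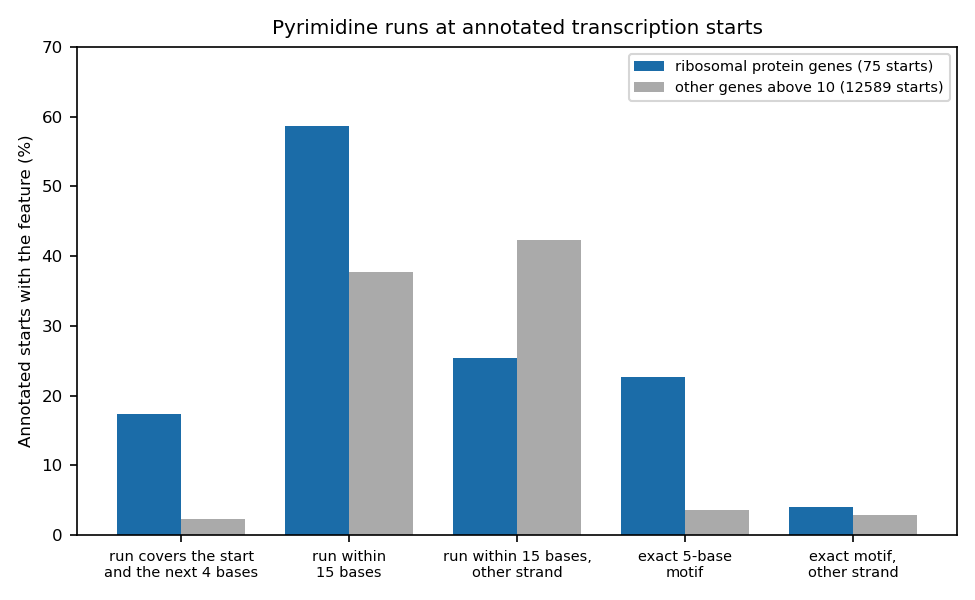
The share of annotated starts (%, vertical axis) with a pyrimidine run or an exact motif of 5 bases is plotted for the 75 starts of ribosomal protein genes (blue) and the 12589 starts of other genes above a mean normalized count of 10 (grey), on the strand of the gene and on the other strand. The blue bars are higher on the strand of the gene (17.3%, 58.7% and 22.7%), while the run is found at fewer starts of members than of other genes on the other strand.

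As a share of all sequenced counts the group was small. The 84 members together held 0.848% of the summed mean normalized counts, and the canonical members 0.831%, while the 10 highest genes of the liver alone held 16.8%. The single most abundant gene, *Alb*, was 142.8 times *Rpl4* in mean normalized count, and per kb of its longest transcript it was 399.3 times the median canonical member. Since these mRNAs are short, levels are compared between genes per kb of transcript. A pair of lengths is used, and each is named: the longest annotated transcript, and the coding length, which leaves out untranslated ends. The same count per gene was divided by either length, so any reads from untranslated ends stayed in the count. The coding length is the longest coding sequence among a gene's protein-coding transcripts, so it can come from a transcript other than the principal one. It was 138 bases for *Rpl41*, whose principal transcript encodes 25 residues, and 636 bases for *Rps19*, with 145 residues.

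Per kb of the longest transcript, the median canonical member had 2654 mean normalized counts, 20.6 times the median of 129 over all genes above 10. Per kb of coding length the ratio was 21.1, with 6522 counts against 309. With no length correction, the median of all 84 members was 5.89 times that of all genes above 10, against 19.1 times per kb of the longest transcript. By count alone, 59 of the 84 members were among the top 10% of listed genes, and 72 were when ranked per kb of the longest transcript. By count, 47 were in the top 10% of genes with a mean above 0 and 35 in the top 10% of those above 10. In whole liver, fewer cells of a type and less RNA per cell cannot be told apart, so these levels are those of the tissue.

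The 73 canonical members other than the 4 lowest, a split made after their values were seen, lay close together. Per kb of coding length their median was 6745 and their middle 50% ran from 4473 to 8256, a ratio of 1.85, and 62 of the 73 were within 2-fold of the median. For comparison, the middle 50% of all genes above 10 spanned a ratio of 13.2 on the same scale. Per kb of the longest transcript the members spread more widely, from 354 for *Rps15a* to 11013 for *Rplp1*, with 46 of 73 within 2-fold of the median. The order of members depended on the length used, with a Spearman rho of 0.66 between both scales across these 73 genes, which share libraries and counts.

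**Figure D2:**
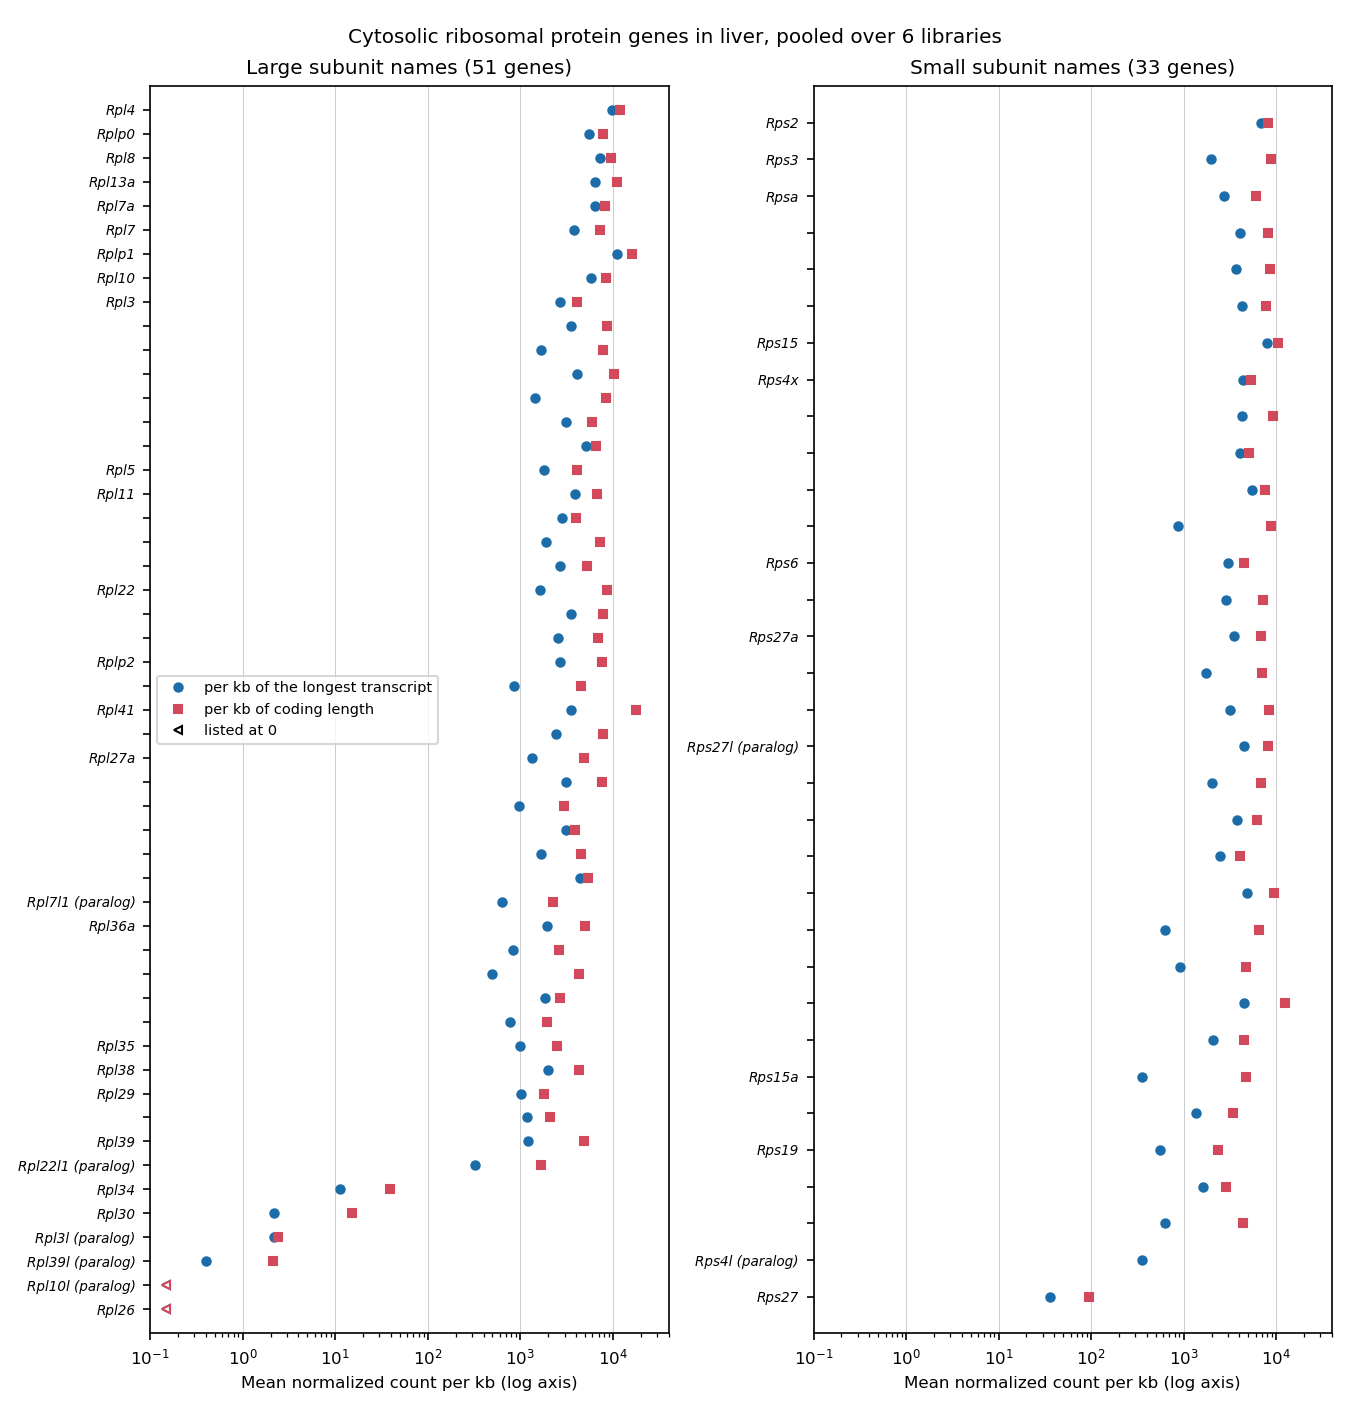
Mean normalized count per kb of the longest transcript (blue circles) and per kb of coding length (red squares) is plotted on a log axis for all 84 members, with names written for those described in the text, ordered by mean normalized count within the large and small subunit names, with open triangles for genes listed at 0. *Rps27*, *Rpl34*, *Rpl30* and *Rpl26* lie far below the other canonical members.

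Among the proteins of the large subunit, *Rpl4*, whose product lines the exit tunnel for the growing peptide, had the highest mean normalized count of any member at 15095, or 9815 per kb of the longest transcript. The stalk of the large subunit recruits the translation factors that hydrolyse GTP. Its gene *Rplp1* was the highest member per kb of the longest transcript at 11013. The other stalk genes were lower on that scale, with 5525 for *Rplp0*, which anchors the stalk, and 2713 for *Rplp2*, the partner of *Rplp1*. Per kb of coding length *Rplp1* had 16068, *Rplp0* 7889 and *Rplp2* 7582, so *Rplp1* stayed above its partners on both scales.

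*Rpl8*, which encodes a protein near the peptidyl transferase centre, had 7185 per kb of the longest transcript. *Rpl13a*, whose product also represses translation of inflammatory mRNAs when released from the ribosome, had 6393. *Rpl7a* had 6334 and *Rpl10*, which encodes a protein that joins the large subunit late in its assembly, had 5784. *Rpl3*, needed for the peptidyl transferase centre, was at 2654, which is the median canonical value. *Rpl5* and *Rpl11* encode the proteins that carry the smallest ribosomal RNA into the large subunit and that bind MDM2 when ribosome assembly fails. They had 1804 and 3928 per kb of the longest transcript, and 4140 and 6745 per kb of coding length. *Rpl41*, which encodes the shortest member, was the highest of all per kb of coding length at 17864 but had 3547 per kb of the longest transcript.

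Among the proteins of the small subunit, *Rps15* was the highest per kb of the longest transcript at 7992, and *Rps2* had 6769. *Rps2* and *Rps3* encode proteins at the mRNA entry channel, and *Rps3* had 1991 on this scale and 8694 per kb of coding length. *Rps6*, the substrate of the S6 kinases, had 3002 per kb of the longest transcript. *Rpsa*, also known as the laminin receptor, had 2730. *Rps27a*, made as a fusion with ubiquitin, had 3460. *Fau*, a fusion with a ubiquitin-like protein and outside the naming rule, had 2674. *Gnb2l1*, which encodes the signalling scaffold RACK1, had 1739 per kb of the longest transcript but 8147.5 per kb of coding length. *Rps19*, the gene most often mutated in Diamond-Blackfan anemia, was among the low members at 559 and 2333 on these scales.

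*Rps15a* showed how far transcript choice moved a value. Its longest transcript is 5179 bases long with a 3′ UTR of 4728 bases, which gave 354 per kb, while per kb of coding length it had 4707 and ranked 51 among the members.

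The subunit medians lay within the spread of the members. Without the 4 lowest canonical members, the median per kb of coding length was 6522 over 43 large subunit genes and 6882 over 30 small subunit genes, and the middle 50% ran from 4221 to 8084 and from 4707 to 8248. Per kb of the longest transcript the medians were 2654 and 2939. Over all members, paralogs included, the large subunit median was 0.683 of the small subunit median, and among canonical members alone the ratio was 0.868. Members are not replicates of a subunit, so no test was made.

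Beside the other genes of translation, fixed as lists with earlier results known, the cytosolic ribosomal protein genes were high per kb. The 77 mitochondrial ribosomal protein genes, whose products form the separate ribosome of that organelle, had a median of 395 per kb of the longest transcript, and the canonical cytosolic median was 6.72 times that value (5.56 times per kb of coding length). All 77 were above 10, and 59 of them were below the lowest of the 73 canonical cytosolic members per kb of coding length. The 35 translation factors had a median of 1296 per kb of the longest transcript. With no length correction their median was 2688 mean normalized counts, against 2848 for the canonical members. The factors held 0.992% of the summed counts, against 0.848% for all 84 members. Some factors exceeded the ribosomal proteins, since *Eef1a1*, which delivers aminoacyl-tRNA to the ribosome, was 17.7 times the canonical median on this scale and 9.34 times per kb of coding length. *Eef2*, which moves the ribosome along the mRNA, was 6.71 and 3.28 times the canonical median. *Eif3j1*, a subunit of an initiation factor that every cell uses, was listed at 0.

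The 28 ribosome biogenesis genes had a median of 239 per kb of the longest transcript, and the canonical median was 11.1 times as high. The highest of them was *Npm1*, the nucleolar chaperone nucleophosmin, at 2272, followed by *Sbds*, which helps release an assembly factor from the large subunit, at 1166. The 12 genes that regulate TOP mRNAs had a median of 243. *Cnbp*, which binds such mRNAs, was at 4018, *Larp1* at 825 and *Mtor* at 192 on the same scale. Every gene of the biogenesis and TOP lists was above 10.

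**Figure D3:**
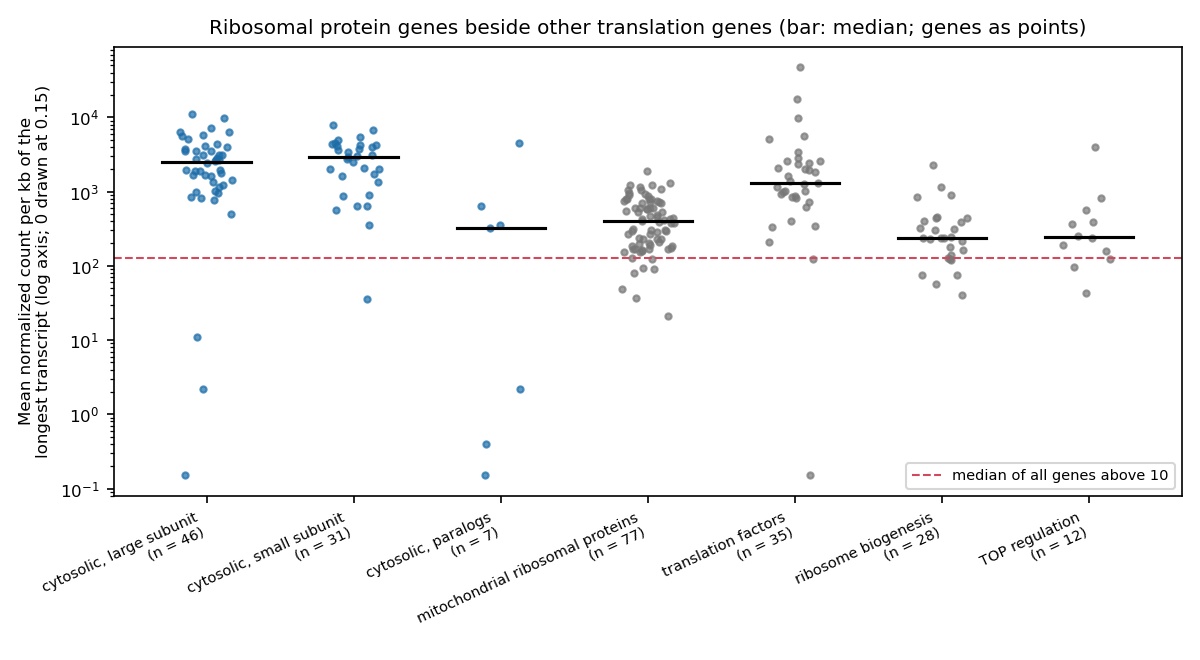
Mean normalized count per kb of the longest transcript (log axis, genes listed at 0 drawn at the foot) is plotted for each gene of the cytosolic ribosomal proteins (blue) and of 4 other translation groups (grey), with black bars at the medians and a dashed line at the median of all genes above 10. The canonical cytosolic groups have medians of 2496 and 2877, above the mitochondrial ribosomal proteins at 395.

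Against this narrow range, 4 canonical genes were almost without counts. *Rpl26* was listed at 0, *Rpl30* at 5.24, *Rpl34* at 13.7 and *Rps27* at 24.0 mean normalized counts. Per kb of coding length *Rps27* had 95.2, *Rpl34* 38.8 and *Rpl30* 15.2, and the lowest of the other 73, *Rpl29* at 1794, was 18.8 times *Rps27*. Per kb of the longest transcript, the lowest of the others (*Rps15a*) was 9.93 times *Rps27*. All 4 encode proteins that ribosomes of every cell contain, and so their listed values were set beside what the annotation holds about each gene, in comparisons chosen after the values were seen.

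The reads were 75 bases long, and the share of 75-base windows of a transcript that also occur in another annotated gene was counted on either strand. *Rps27* (chr3:90212522-90213651, minus strand, GRCm38) shared 267 of its 271 windows (98.5%) with the protein-coding retrocopy *Rps27rt*, which was itself listed at 0. *Rpl30* (chr15:34440505-34443640, minus strand) shared 71.8% of its windows, and 57.4% of its exonic bases lay opposite exons of *D730044K07Rik* on the other strand. *Rpl26* (chr11:68901583-68906989, plus strand) shared 48.9%, most with the processed pseudogene *Gm15772*. *Rpl34* (chr3:130726831-130730398, minus strand) shared 30.5%, with *Rpl34-ps1*, listed at 0, among 8 genes. Over 50% of the windows were shared in 2 of the 4, against 33 of the other 73 canonical members. For *Rpl30*, 384 of the 583 shared windows were with *D730044K07Rik* on the other strand, and whether strand was used in counting is not given.

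Sharing was common among the canonical members. The median canonical member shared 44.6% of its windows, and 35 of the 77 shared over 50%. Among the 73 other members the 33 with over 50% shared had a median of 3088 mean normalized counts, and the 40 with at most 50% had 3256. *Rpl5* shared 92.5% and was at 3689 mean normalized counts, while *Rps3* shared no window and was at 6338. Across the 73, the Spearman rho of the shared share was -0.13 with the mean normalized count and -0.44 with the count per kb of coding length, both across genes that share libraries. How reads with several matches were counted is not given in the sources used here, and the part of sequence sharing in the low values was not tested.

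**Figure D4:**
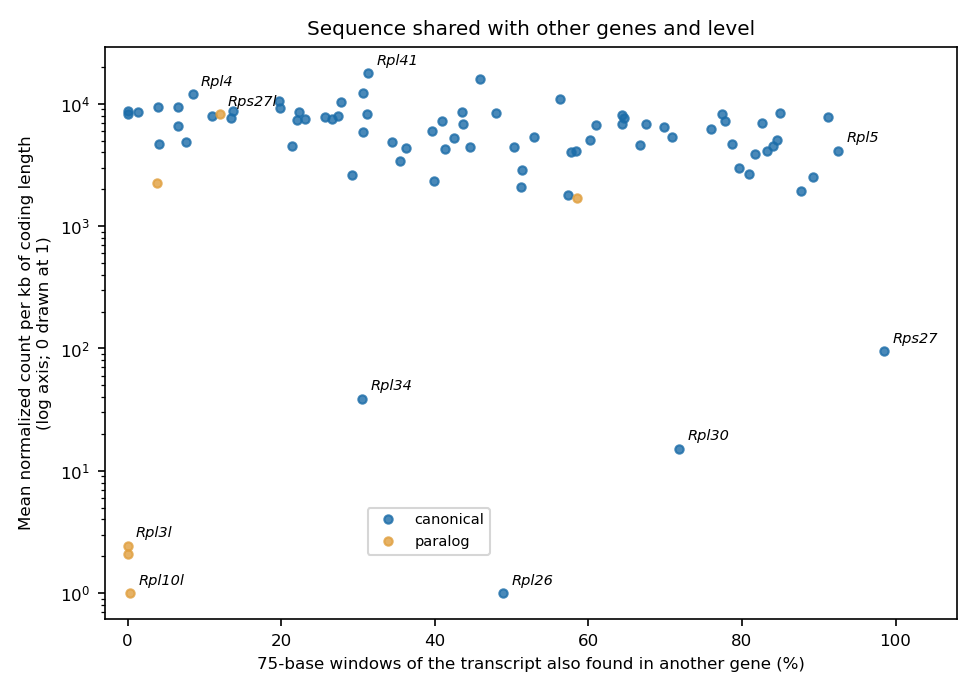
Mean normalized count per kb of coding length (log axis, genes listed at 0 drawn at the foot) is plotted against the share of 75-base windows also found in another gene (%), for canonical members (blue) and paralogs (orange). The 4 lowest canonical genes lie at 30.5% to 98.5%, and the other 73 canonical members, with shares up to 92.5%, stay at 1794 or more.

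The paralogs followed no common level. *Rps27l*, a p53-responsive relative of *Rps27* with 76.2% identity in the coding sequence, was at 2594 mean normalized counts while *Rps27* was at 24.0, and per kb of coding length it was 86.5 times its partner. This order is that of the listed values, and 98.5% of the windows of *Rps27* were shared with *Rps27rt*. The part of this sharing in the low value of *Rps27* was not tested. In the other pairs the canonical gene was the higher. *Rpl7* was at 6060 and *Rpl7l1* at 1649, a ratio of 3.24 per kb of coding length. *Rpl22*, which encodes an RNA-binding protein of the large subunit, was at 3319 and *Rpl22l1* at 616, a ratio of 5.13 on that scale. *Rpl36a* was at 1595 and *Rpl36al*, a copy outside the naming rule, at 791.

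*Rps4l* is annotated as a transcribed processed pseudogene, with 79.97% identity to *Rps4x* over the aligned bases. It was at 337 and *Rps4x*, on the X chromosome, at 4239, and per kb of the longest transcript *Rps4x* was 12.2 times higher. The paralogs known from muscle and testis were at the foot of the table, as were the markers of those tissues. *Rpl3l*, expressed in heart and skeletal muscle, was at 2.97 with *Rpl3* at 4982. *Rpl39l* and *Rpl10l*, both known from male germ cells, were at 0.322 and at 0, with *Rpl39* at 746 and *Rpl10* at 5380. No 75-base window was shared within any of these pairs.

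By their medians, the canonical members also had a compact gene structure. In their principal transcripts the median 5′ UTR was 128 bases against 178 over 12099 coding genes above 10, the median coding sequence 456 against 1392 bases, and the median 3′ UTR 68 against 1004 bases. They had a median of 5 exons against 9. Single canonical members ranged widely, with 5′ UTRs of 17 to 2375 bases, 3′ UTRs of 28 to 4728 bases and 3 to 10 exons. A small nucleolar RNA (snoRNA), of the class that guides the chemical modification of ribosomal RNA and is cut out of introns, lay within 30 of the 77 canonical genes (39.0%) on the same strand, against 1.60% of the coding genes above 10. *Rpl4* held 5 snoRNAs, *Rpl13a* held 4, and none of the 7 paralogs held any. Members lay on 19 chromosomes, with 14 on chromosome 7 and 4 on X.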

How the data were processed

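Poly(A) mRNA libraries from liver were sequenced with single-end reads of 75 bases. The authors mapped reads to mm10 using STAR and used DESeq2 for the genotype comparison, and the submitters' processing notes also name HOMER. Versions, gene annotation, strand setting and the handling of reads with several matches are not given in the sources used here. The signal used here is the authors' deposited mean normalized count, in which DESeq2 scales each library by its size factor and averages all 6. The deposited fold changes, their standard errors, test statistics and p-values hold the authors' own comparison of the genotypes and were not used. The 6 per-sample columns of counts were not used, because their headings match no sample label. A planned edgeR comparison of the genotypes was therefore not run.

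Levels were divided by transcript lengths from GENCODE M21 (GRCm38), found by symbol for 95.6% of listed genes and for all 84 members. Genes were summarised above a mean normalized count of 10, with Python 3.11.15, pandas 2.3.3 and SciPy 1.17.1. Coding sequences of paralogs were aligned with Biopython 1.88 (match 1, mismatch -1, gap opening -5, gap extension -0.5). The count of shared windows was checked on simulated sequences. The genes named are the 10 highest members and the 5 lowest canonical members per kb, the stalk genes, *Rpsa*, *Rps27a*, every paralog with its partner, every member under 10, and canonical proteins outside the naming rule. Some genes that this rule takes are not reported here. Other members named for their role, the 4 lowest genes as a group, window sharing, exon overlap, snoRNAs and structure were chosen after values were seen. Members and gene lists were chosen with earlier results of these data known.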

Additional observations from a re-analysis of the deposited data

How the results depend on the processing

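No paired analysis was possible because the counts per animal could not be matched to the samples by name, so no genotype test was made. The planned DESeq2 size factors, fit without a count filter, replicate block and leave-one-out fits were not run for the same reason. The members' share of summed counts was 0.848% and became 1.02% without the 10 highest genes. The number of members in the top 10% was 59 of all listed genes and 35 among those above 10. The ratio of the members' median to that of all genes above 10 was 19.1 per kb of the longest transcript, 19.4 per kb of coding length, 14.6 per kb of the exon union, 22.2 per kb of the principal transcript (added after the data were seen) and 5.89 with no length. The ratio of the large to the small subunit median was 0.683, and became 0.729 with coding length, 0.755 with the exon union, 0.866 with no length, 0.868 for canonical members, 0.703 with the read length subtracted and 0.669 with the principal transcript. Without the 4 lowest canonical members it was 0.903, or 0.795 with the principal transcript, and these last 3 were added after the data were seen. The ratio stayed below 1 under each of these settings. Those not limited to canonical members include the nearly empty paralogs *Rpl3l*, *Rpl10l* and *Rpl39l*, all counted with the large subunit. Of the 4 lowest canonical genes, *Rpl26*, *Rpl30* and *Rpl34* are also of the large subunit. Without the 4 lowest, the canonical medians per kb of coding length were 6522 (large) and 6882 (small). With the pooled means alone, the error of each level was not assessed.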
